A study of Arabidopsis thaliana with 26 samples.

Results

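Transcript levels in developing leaves of Arabidopsis thaliana were compared between the samples taken at 12 h and those taken at 4 h, to find which genes reversed, continued or began a change after 4 h. The comparison used the 4 Affymetrix ATH1 arrays labelled 12 h and the 4 labelled 4 h, 8 of the 26 arrays of the series, and covered all 22746 probe sets other than the AFFX controls, of which 13648 passed a filter on low values. Every plant was of accession Col-0, was grown on compost in a growth room at 20 °C and 50% humidity with 10 h of light, and was kept under ambient CO2 and ambient light, so the groups differed by label in the time alone. The leaves were those of insertions 19 to 21. The 4 arrays at 2 h supplied the interval before 4 h, and the arrays at 24 h, 48 h and 96 h, 4 at each time, were used to follow the same genes later. The series is the ambient treatment of a study of systemic signalling of irradiance and CO2. Replicates carry only a number, with no statement that they came from different plants, so every p-value rests on a spread between arrays that may be technical. The limma p-values and standard errors pool the spread within all 7 groups of the 26 arrays. They can therefore understate it for a gene that varied more at 4 h or 12 h than elsewhere. No clock time is attached to the hours, and whether the 12 h leaves were sampled in light or in darkness is not known here.

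Leaves in a day and night cycle build starch in the light and break it down in the dark, and the circadian clock, of which GI (GIGANTEA) is a component, sets many transcripts to peak at one part of the day. A developing leaf also has to make new ribosomes, replicate its DNA, package it in histones and divide, and each of these has its own set of genes. When sugar runs short, leaf cells can turn to autophagy, in which ATG8 proteins coat the membranes that carry cell contents to the vacuole, and to the breakdown of amino acids.

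The deposited values are intensities, 1 per probe set and array, and 4.35 was added to each before log2 was taken. All levels below are on that scale, and differences are log2 differences, followed by their standard error (SE). The 12 arrays at 2 h, 4 h and 12 h had median intensities of 42.2 to 45.3. Within a time the mean correlation of array pairs over the probe sets, as a description, was 0.978 to 0.981. The number of arrays limits the precision. Of 10 mesophyll marker genes 5 had a probe set and all 5 were measured, with a summed intensity of 10413 to 11388 on the 4 h arrays and 8086 to 9053 on the 12 h arrays. This sum holds LHCB4.2 and PSAN, which fell. Markers of guard cells summed to 143 to 180 at 4 h and 101 to 172 at 12 h over the 3 genes with a probe set, and the meristem marker CLV3 (1.74 to 3.55 and 1.88 to 3.73) and the root marker PYK10 (21.4 to 52.4 and 19.0 to 35.0) were low at both times. The lists for phloem, xylem, trichome, epidermis and flower had no gene with a probe set that the annotation used here names. That annotation names no gene for 8730 of the 22746 probe sets, so further markers may be among those. The counts of markers with a probe set given above are likewise those it names.

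Between 4 h and 12 h far more transcripts changed than between 2 h and 4 h, but the earlier interval was also much shorter. The clock gene GI, the cytochrome P450 gene CYP71B26 and the antenna protein gene LHCB4.2 fell several-fold, along with most measured genes of ribosome assembly and of histone H2B. Of the measured genes, 8 of 10 of autophagy, 6 of 14 of the serine carboxypeptidase-like family and all 3 for subunits of the chloroplast NDH complex rose. By limma with Benjamini-Hochberg adjustment, 5351 of 13648 probe sets (39.2%) passed the threshold of 0.05 in the comparison of 12 h with 4 h, 2961 higher (21.7%) and 2390 lower (17.5%). At 2-fold or more, 243 were higher (1.78%) and 400 lower (2.93%). The 4 values at 12 h did not overlap the 4 at 4 h in 5178 probe sets (37.9%), 4498 of them among those that passed. Over the earlier interval, 319 probe sets passed (2.34%), 183 higher (1.34%) and 136 lower (0.996%). At 2-fold or more, 28 of these were higher (0.205%) and 12 lower (0.0879%). The median difference of all measured probe sets from 4 h to 12 h was 0.06. List counts below are to be set beside the shares of all probe sets, 21.7% higher and 17.5% lower. Whether a list departs from them was not tested.

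Both sets of calls together divide the probe sets into classes. Of the 5351 that passed from 4 h to 12 h, 81 reversed a change that had passed from 2 h to 4 h, 126 continued one and 5144 passed after 4 h only. In the reversed class 47 rose and then fell and 34 fell and then rose. In the continued class 70 rose and 56 fell in both intervals. The class that started after 4 h held 2857 rises and 2287 falls. A further 112 probe sets passed by 4 h and not after it, 66 higher and 46 lower at 4 h. Both comparisons share the 4 h arrays, which enter them with opposite signs, so that a chance deviation at 4 h counts towards a reversal. A probe set that did not pass from 2 h to 4 h is not shown to have stayed level, and the median SE of that interval in the class that started to rise was 0.12. An earlier difference under 0.2 in size was found in 2283 of 2857 in that class, in 1797 of 2287 in the class that started to fall and in 10776 of all 13648, so these counts are not particular to the classes.

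**Figure D1:**
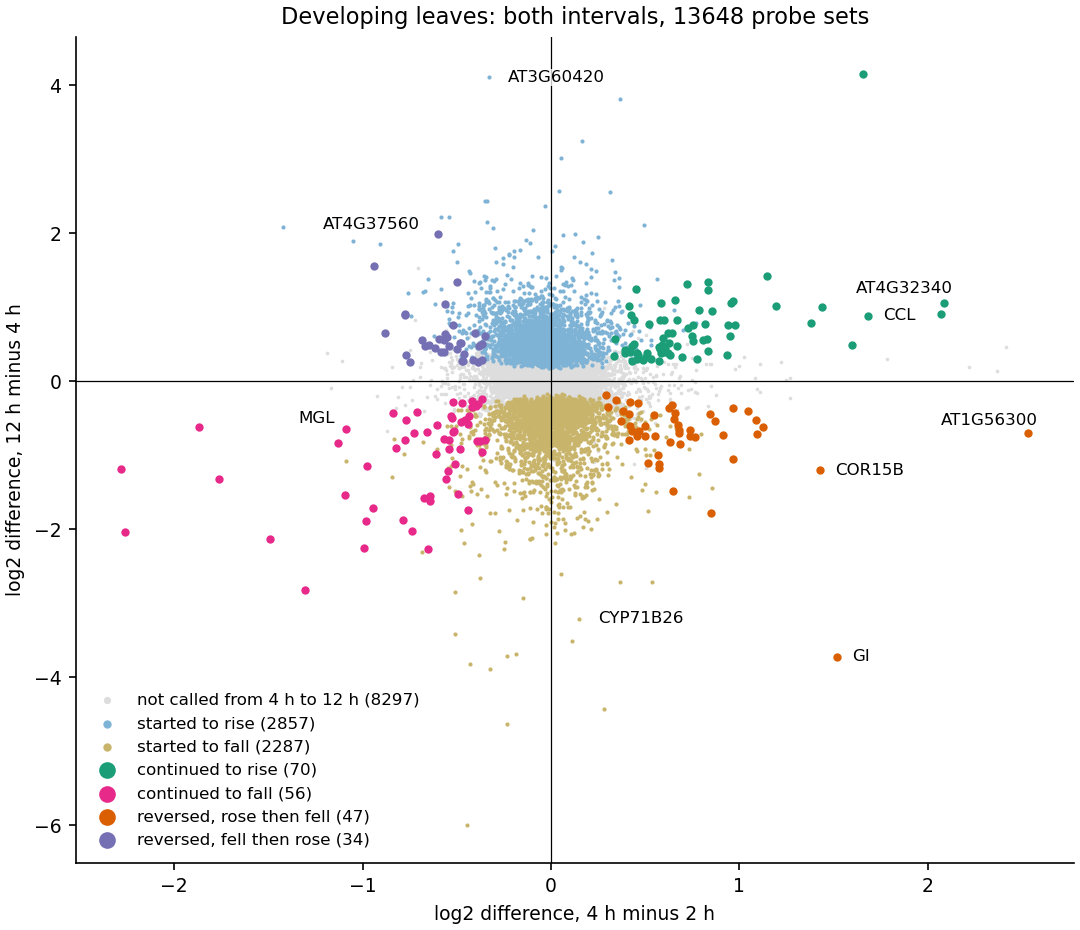
Log2 difference from 2 h to 4 h (x axis) against that from 4 h to 12 h (y axis) for each of the 13648 measured probe sets, 4 arrays per time, coloured by class with the number of probe sets in the legend. GI stands alone at the lower right, at 1.52 and -3.72, and most of the coloured points lie near 0 on the x axis.

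Among the 47 probe sets that rose and then fell, GI had the largest fall. Its levels were 6.01, 5.93, 5.82 and 5.80 on the 2 h arrays, 7.53, 7.29, 7.42 and 7.38 at 4 h, and 4.03, 2.99, 3.68 and 4.04 at 12 h. The 3 times did not overlap, and the 12 h values were the lowest. GI (AT1G22770) rose by 1.52 ± 0.16 and then fell by 3.72 ± 0.16, 13.2-fold (adjusted p = 1.06e-15, limma, 4 arrays against 4). The 12 h levels of GI lie near the floor that the pseudocount sets, and with a pseudocount of 50% of the median the fall was 6.11-fold. At 24 h its mean was back at 5.72 ± 0.26 (SD, n = 4). Among the measured probe sets, the annotation used here names no other gene of the clock lists than AT5G52660, of the morning list. That gene was at 0.16 ± 0.14 from 4 h to 12 h and did not pass (adjusted p = 0.367, limma).

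COR15B (AT2G42530), a cold-regulated gene for a chloroplast protein that protects membranes in the cold, was the other gene of this class with at least a 2-fold difference in both intervals. It stood at 7.41, 7.48, 7.11 and 7.22 at 2 h, at 8.93, 8.43, 8.35 and 9.21 at 4 h, and at 7.78, 7.21, 7.48 and 7.64 at 12 h. The 4 h values were above all others, while the 2 h and 12 h values overlapped. The rise was 1.43 ± 0.19 and the fall 1.2 ± 0.19 (adjusted p = 9.69e-06, limma). Its paralog COR15A fell by 1.44 ± 0.31 after a difference of 0.86 ± 0.31 that had not passed (adjusted p = 0.199, limma). The paralogs are alike in sequence, and how far their probe sets share signal was not tested. Of 6 measured genes of cold and dehydration 3 fell from 4 h to 12 h, the last being the dehydrin gene LTI30 (-0.61 ± 0.20), and STZ, a zinc finger transcription factor, rose by 1.07 ± 0.20. The median of this list was -0.26, and over all probe sets 17.5% fell and 21.7% rose. LTI30 did not pass without 4 h replicate 2 or without 12 h replicate 3 (adjusted p of up to 0.0522, limma).

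A pair of chlorophyll synthesis genes turned in the same way. PORB (AT4G27440), which codes for the light-dependent protochlorophyllide reductase, was at 10.29, 9.98, 9.87 and 10.27 at 2 h, 11.28, 11.10, 11.18 and 11.34 at 4 h, and 10.63, 10.41, 10.71 and 10.69 at 12 h. No times overlapped, and the 12 h arrays lay between the other groups. PORB rose by 1.12 ± 0.14 and then fell by 0.61 ± 0.14 (adjusted p = 0.00122, limma). CHLI2, a subunit of magnesium chelatase, rose by 0.47 ± 0.10 and fell by 0.67 ± 0.10. Its rise did not pass without 2 h replicates 1 or 3 or 4 h replicate 3 (adjusted p of up to 0.0651, limma). HEME2, for a uroporphyrinogen decarboxylase, fell by 0.42 ± 0.08, and HEMA2, a glutamyl-tRNA reductase gene, rose by 0.72 ± 0.16. Of 8 measured genes of chlorophyll and haem synthesis 3 thus fell and 1 rose, with a median of -0.18. Over all probe sets 17.5% fell and 21.7% rose, so this count is not read as a result about the pathway.

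Of the list for mitosis and cytokinesis, TOPII, 3xHMG-box2 and KINESIN-12B were in this class. Of its 9 measured members 5 had risen from 2 h to 4 h, with a list median of 0.53, and 5 fell from 4 h to 12 h, with a median of -0.52. Over all probe sets 1.34% rose in the first interval and 17.5% fell in the second. Both medians rest on the same 4 h arrays, so a chance deviation there would move them in opposite directions. TOPII, a DNA topoisomerase gene, had 4 h values of 7.83, 7.50, 7.83 and 8.08 against 7.03, 6.71, 7.03 and 7.48 at 12 h. The groups did not overlap, though the lowest 4 h array and the highest 12 h array were close. It rose by 0.74 ± 0.18 and fell by 0.75 ± 0.18 (adjusted p = 0.00136 for the fall, limma). 3xHMG-box2, whose protein binds mitotic chromosomes, rose by 0.68 ± 0.15 and fell by 0.66 ± 0.15. KINESIN-12B, which codes for a motor protein of the dividing cell plate, rose by 0.74 ± 0.16 and fell by 0.65 ± 0.16. The spindle checkpoint gene BUB3.1 (-1.02 ± 0.12) and the kinase gene FU (-0.52 ± 0.17) fell without an earlier call, at 0.35 ± 0.12 and 0.53 ± 0.17 from 2 h to 4 h. The Aurora kinase genes AUR1 and AUR2 had risen by 0.45 and 0.62 and stood at 0.02 ± 0.11 and -0.12 ± 0.16 after 4 h, where neither passed. The earlier rise of TOPII did not pass without 2 h replicates 1 or 3 or 4 h replicates 1, 3 or 4 (adjusted p of up to 0.0948, limma), nor that of 3xHMG-box2 without 4 h replicate 1 (0.0546). FU did not pass without 12 h replicates 1 or 2 or with the actin control ratio as a covariate (adjusted p of up to 0.0648, limma).

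The other named reversals of this kind were smaller or carry no function in the annotation used here. AT1G56300 had the largest first rise of the class, 2.53 ± 0.19, and fell by 0.70 ± 0.19. AT1G13930 rose by 0.69 ± 0.10 and fell by 0.84 ± 0.10, AT3G17680 rose by 0.91 ± 0.14 and fell by 0.73 ± 0.14, and AT4G36010 rose by 0.77 ± 0.15 and fell by 0.75 ± 0.15. Over the 47 probe sets the median differences were 0.64 and then -0.66, and from 2 h to 12 h the class median was -0.01. In the test of 12 h against 2 h, in which 39.2% of all measured probe sets passed, 31 of the 47 did not pass.

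Genes that fell and then rose were led by AT4G37560, at 6.11, 5.29, 5.81 and 5.61 at 2 h, 5.03, 5.02, 5.02 and 5.36 at 4 h, and 6.97, 7.26, 6.92 and 7.22 at 12 h. The 12 h values were above all others, and 1 array at 4 h reached into the range of 2 h. It fell by 0.60 ± 0.14 and then rose by 1.99 ± 0.14, 3.97-fold (adjusted p = 1.17e-11, limma). Without 2 h replicate 1 the first fall did not pass (adjusted p = 0.0717, limma). AT5G19240 fell by 0.78 ± 0.14 and rose by 0.91 ± 0.14, and AT2G39210 fell by 0.56 ± 0.12 and rose by 1.04 ± 0.12. The fall of AT2G39210 did not pass without 4 h replicate 4 (adjusted p = 0.0596, limma). HCT, an enzyme gene of the lignin branch of phenylpropanoid synthesis, was the only member of this class with a gene symbol other than a locus code, at -0.35 and then 0.61. It was chosen for that symbol after its values were seen. None of the 34 differed by 2-fold or more in both intervals. The light-signalling transcription factor gene HYH, which had fallen by 0.85 ± 0.16 by 4 h, was at 0.20 ± 0.16 from 4 h to 12 h and did not pass (adjusted p = 0.37, limma).

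The genes that kept rising included both measured genes of starch breakdown. PWD (AT5G26570), the phosphoglucan water dikinase that prepares the starch granule for attack, was at 7.47, 7.59, 7.22 and 7.44 at 2 h, 8.03, 8.08, 8.01 and 8.08 at 4 h, and 8.69, 8.69, 8.85 and 8.58 at 12 h. The 3 times did not overlap, and the 12 h values were the highest. It rose by 0.62 ± 0.09 and again by 0.65 ± 0.09 (adjusted p = 1.70e-06, limma). DPE1, the plastid disproportionating enzyme that acts on maltotriose, rose by 0.70 ± 0.11 and 0.33 ± 0.11, with 4 h values of 7.48, 7.44, 7.45 and 7.56 and 12 h values of 8.03, 7.73, 7.78 and 7.72. The second rise of DPE1 did not pass without 12 h replicate 1 (adjusted p = 0.0667, limma). At 24 h PWD stood at 7.12 ± 0.16 (SD, n = 4) and DPE1 at 6.0 ± 0.13, under their means at 2 h. The genes of starch synthesis, APL3 (-0.33 ± 0.18) and SBE2.2 (-0.19 ± 0.12), did not pass after 4 h.

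CCL (AT3G26740), a gene known for a transcript whose stability follows the clock, rose in both intervals. It stood at 8.83, 8.19, 7.92 and 7.94 at 2 h, 9.76, 9.96, 9.85 and 10.04 at 4 h, and 10.83, 10.82, 10.68 and 10.80 at 12 h. The first step was the larger of the pair, 1.68 ± 0.16 against 0.88 ± 0.16 (adjusted p = 9.32e-05 for the second, limma). At 24 h its mean was 6.54 ± 0.35, below that of 2 h. AT4G32340 followed the same order with 2.08 ± 0.18 and 1.05 ± 0.18, as did AT3G62550 with 1.44 ± 0.18 and 1.0 ± 0.18. AT3G15630 gained more in the second interval, 1.15 ± 0.16 and then 1.42 ± 0.16, and AT1G26665 did so with 0.84 ± 0.14 and 1.34 ± 0.14. THIC, whose enzyme makes the pyrimidine part of thiamin, rose by 0.66 ± 0.12 and 1.1 ± 0.12 and was picked after its values were seen.

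Serine carboxypeptidase-like genes, which code for vacuolar or secreted proteases and acyltransferases, took part in both the continued and the later rises. This family and the others below that are read from gene symbols were assembled after values had been seen. Of 14 measured members 6 rose from 4 h to 12 h and none fell, with a median of 0.23. SCPL49 was at 7.34, 7.41, 7.63 and 7.43 at 2 h, 7.99, 8.38, 8.37 and 8.40 at 4 h, and 9.37, 9.57, 9.50 and 9.62 at 12 h. No times overlapped for this gene. It rose by 0.83 ± 0.13 and 1.23 ± 0.13, and scpl35 rose by 0.85 ± 0.11 and 0.94 ± 0.11. By contrast scpl46 was at -0.44 over the first interval, which did not pass (adjusted p = 0.519, limma), and then rose by 1.48 ± 0.23.

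Among genes that kept falling, AT1G76240 had 2 h values of 7.78, 7.91, 7.88 and 7.69, 4 h values of 7.05, 7.39, 7.31 and 6.95, and 12 h values of 5.49, 5.47, 5.72 and 5.57. The groups descended in steps with no overlap. It fell by 0.64 ± 0.10 and then by 1.61 ± 0.10 (adjusted p = 4.52e-12, limma). CYTC-2 (AT4G10040), for the cytochrome c that carries electrons in the mitochondrion, was at 7.04, 7.26, 7.24 and 7.0 at 4 h and at 6.0, 5.86, 5.59 and 5.80 at 12 h, after 7.61, 8.05, 7.61 and 7.50 at 2 h. It fell by 0.56 ± 0.13 and by 1.32 ± 0.13, and the first of these did not pass without 2 h replicate 2 or 4 h replicates 1 or 4 (adjusted p of up to 0.116, limma). MGL, methionine gamma-lyase, fell by 1.09 ± 0.17 and 0.65 ± 0.17, and EXPB1, a beta-expansin that loosens cell walls, by 0.73 ± 0.17 and 0.70 ± 0.17. The first fall of EXPB1 did not pass without 2 h replicates 3 or 4 or 4 h replicate 1 (adjusted p of up to 0.058, limma). AT5G48490 fell by 0.64 ± 0.12 and 1.55 ± 0.12. At 2-fold or more in both intervals there were 6 probe sets in this class, none of which names a gene, and 5 in the class that kept rising, of which AT3G15630, AT4G32340 and AT3G62550 name one.

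**Figure D2:**
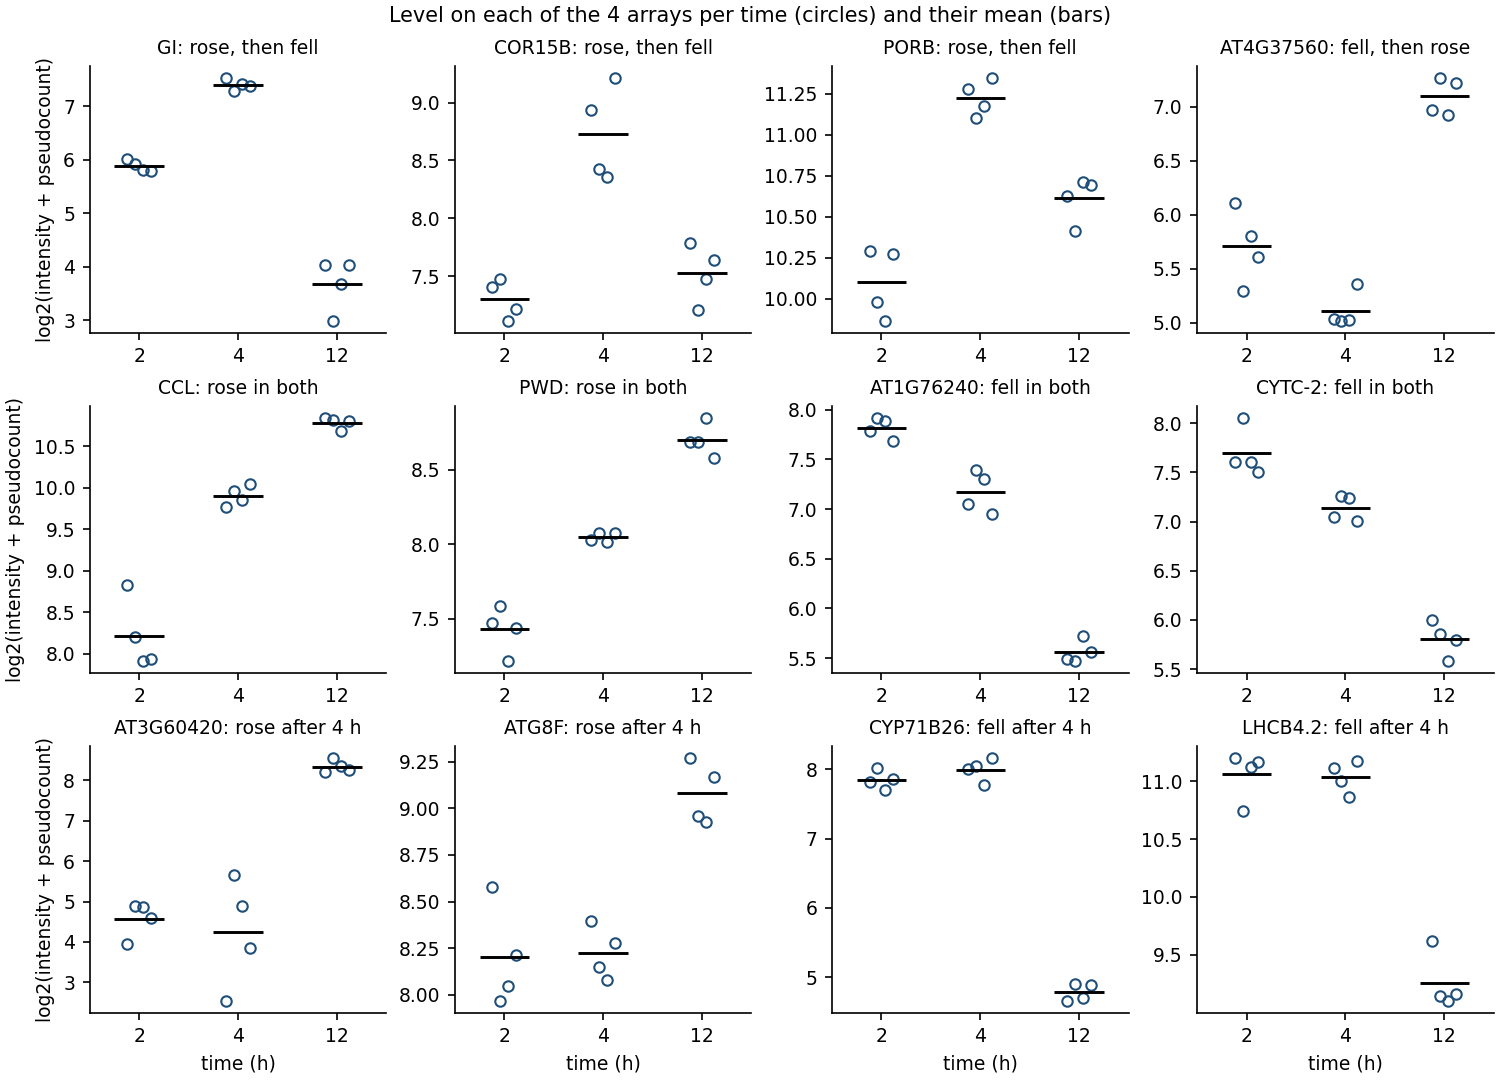
Level of 12 genes on each array at 2 h, 4 h and 12 h (x axis), as log2 of intensity plus pseudocount (y axis, its range set for each gene), with 4 circles per time and a bar at their mean. GI, COR15B and PORB peak at 4 h, CCL and PWD climb and AT1G76240 and CYTC-2 descend through the 3 times, and the last row moves after 4 h only.

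The levels at the later times did not enter the differences that set the classes, but those arrays did enter the fit whose variances decided the calls. The differences below are taken from the 2 h arrays, which chose the classes too. With the arrays at 2 h, 4 h and 12 h alone, 108 probe sets reversed, 144 continued and 5483 started. The class that had kept falling to a median of -1.44 at 12 h against 2 h had a median of 0.52 at 24 h, 0.75 at 48 h and 0.86 at 96 h. The class that had kept rising, at 1.29 at 12 h, was at -0.28, -0.31 and -0.34. Genes that fell and then rose were at a median of 0.55 at 24 h and 1.06 at 96 h, and those that rose and then fell at -0.53 and -0.71. The class that started to rise after 4 h went from 0.46 at 12 h to 0.11 at 24 h, and the class that started to fall from -0.57 to -0.22.

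**Figure D3:**
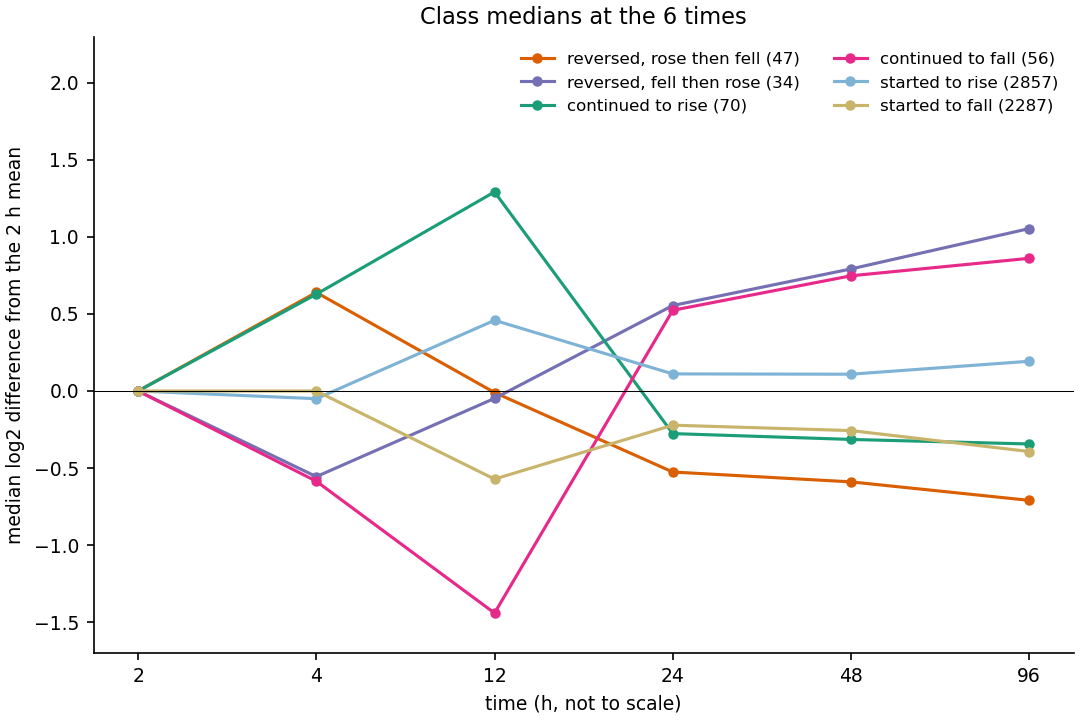
Median over each class of the difference between a time's mean and the 2 h mean (y axis, log2) at the 6 times (x axis, not to scale), 4 arrays per time, with the number of probe sets in the legend. The continued classes reach 1.29 and -1.44 at 12 h and lie on the other side of 0 at 24 h, at -0.28 and 0.52.

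Most change after 4 h was in genes with no call before it. AT3G60420 rose most of the genes named here, from 2.54, 5.67, 4.89 and 3.84 on the 4 h arrays to 8.21, 8.54, 8.35 and 8.27 at 12 h. The 4 h arrays were widely spread and the 12 h arrays close together, all of them higher. The rise was 4.11 ± 0.43, 17.2-fold (adjusted p = 2.27e-08, limma). The lowest 4 h array of AT3G60420 is at that floor, and with the larger pseudocount the rise was 8.72-fold. AT3G16530 rose by 2.57 ± 0.40, AT1G78020 by 2.16 ± 0.15, AT1G25275 by 2.11 ± 0.17, AT5G59670 by 2.07 ± 0.19 and AT4G38550 by 1.95 ± 0.13. Those genes carry only a locus code here. AKINBETA1, a beta subunit of the SnRK1 kinase that responds to energy shortage, went from 6.93, 6.52, 6.84 and 6.70 to 7.90, 7.71, 7.77 and 7.96. All 12 h arrays were above all 4 h arrays, and it rose by 1.09 ± 0.15 (adjusted p = 1.92e-06, limma). Its list, of genes induced by dark and starvation, was split after 4 h. Of 3 measured members 1 rose, 1 fell (MGL, -0.65 ± 0.17) and 1 did not pass (AT3G15450, 0.33 ± 0.25, adjusted p = 0.306, limma). AT3G15450 had already risen by 1.02 ± 0.25 from 2 h to 4 h (adjusted p = 0.0195, limma). Among genes picked for their symbol after values were seen, the response regulator gene RR16 of cytokinin signalling rose by 1.36 ± 0.12 and ALN, the allantoinase of purine breakdown, by 1.36 ± 0.18.

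Autophagy genes rose together. Of 7 measured genes of the list for senescence and autophagy 6 rose and none fell, with a median of 0.67 after one of 0.02 from 2 h to 4 h, and none of them had been called by 4 h. ATG8F (AT4G16520) was at 8.39, 8.15, 8.08 and 8.28 at 4 h and 9.27, 8.96, 8.93 and 9.17 at 12 h. ATG8E was at 7.0, 6.18, 6.32 and 6.28 and then at 7.99, 7.30, 7.49 and 7.70. In both genes the groups did not overlap, with 4 h replicate 1 of ATG8E close to the lowest 12 h array. ATG8F rose by 0.85 ± 0.12 (adjusted p = 2.77e-06, limma), ATG8E by 1.18 ± 0.31 (adjusted p = 0.0032) and APG8H by 0.84 ± 0.16. The vacuolar protease gene GAMMA-VPE rose by 0.53 ± 0.18, but did not pass without 4 h replicates 1 or 4 or 12 h replicates 2, 3 or 4 (adjusted p of up to 0.117, limma). BETA-VPE of the same family, which is not in this list, fell (adjusted p = 8.04e-09, limma). Its difference was -1.31 to -0.82 over the fits tried, and it passed in all of them. ATG8H (0.67 ± 0.22) did not pass without 4 h replicate 4, and APG8A (0.35 ± 0.12) without 4 h replicate 1 or 12 h replicates 1 or 4. Neither passed with the actin control ratio as a covariate (adjusted p of up to 0.106 and 0.095, limma). With the further ATG genes that the symbols name, 8 of 10 rose, among them ATG8C by 0.67 ± 0.10 and ATG3, whose enzyme attaches ATG8 to lipid, by 0.35 ± 0.08. The paralog ATG8B was at -0.12 ± 0.17 and ATG8G at 0.25 ± 0.13, and neither passed.

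Of 11 measured genes of amino acid breakdown 5 rose and 1, MGL, fell, with a median of 0.26. Over all probe sets 21.7% rose and 17.5% fell. MCCA, a subunit of methylcrotonyl-CoA carboxylase in leucine breakdown, went from 5.46, 5.24, 5.36 and 5.40 to 6.11, 5.87, 5.98 and 6.31. The groups were clearly apart, and the rise was 0.70 ± 0.16 (adjusted p = 0.000924, limma). ETFALPHA and ETFBETA, the subunits of the electron-transfer flavoprotein that takes electrons from this pathway, rose by 0.48 ± 0.12 and 0.46 ± 0.14, and ALDH6B2, the methylmalonate-semialdehyde dehydrogenase of valine breakdown, by 0.46 ± 0.12. AT4G33150 rose by 0.43 ± 0.16 and lost its call without 4 h replicates 1, 3 or 4 or 12 h replicates 2 or 4, without the filter, under quantile normalization and with the actin ratio (adjusted p of up to 0.254, limma).

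Genes for building ribosomes fell after 4 h, having shown no call before it. Of 9 measured genes of ribosome biogenesis 8 fell and none rose, with a median of -1.0 after a median of 0.01 from 2 h to 4 h. AT1G52930 of this list was at 9.20, 9.02, 9.25 and 9.19 at 4 h and at 7.90, 7.75, 7.63 and 7.97 at 12 h. Its groups lay more than 1 log2 unit apart, and it fell by 1.35 ± 0.12 (adjusted p = 9.60e-10, limma). AT3G15460 fell by 1.27 ± 0.12, AT3G05060 by 1.24 ± 0.13, and RBL, which is related to a yeast factor of ribosome assembly, by 1.0 ± 0.13. RRP41, a subunit of the exosome that trims ribosomal RNA, fell by 0.40 ± 0.10. PRH75 was at -0.15 ± 0.12 and did not pass. In bulk leaf RNA, fewer cells with a transcript and less of it per cell cannot be told apart.

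RNA polymerase genes moved with them. Of 9 measured subunits named by symbol 6 fell and none rose, with a median of -0.71. NRPA1, the largest subunit of RNA polymerase I, which transcribes ribosomal RNA, was at 7.13, 7.19, 7.29 and 7.41 at 4 h and 5.76, 5.76, 5.92 and 6.39 at 12 h. NRPA2, the second largest, was at 8.05, 8.16, 8.24 and 8.27 and then 6.87, 6.98, 7.29 and 7.19. Neither gene's groups overlapped. NRPA1 fell by 1.3 ± 0.16 and NRPA2 by 1.1 ± 0.13 (adjusted p = 1.55e-07, limma). NRPC2 of RNA polymerase III fell by 0.71 ± 0.12, and NRPB7 and NRPB12 of polymerase II or shared complexes by 0.74 ± 0.17 and 0.78 ± 0.11. YAO, a nucleolar protein gene of ribosomal RNA processing, fell by 1.25 ± 0.11 and was picked after its values were seen.

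Histone H2B genes fell, and linker histones did not pass. Of 8 measured histone genes 6 fell and 0 rose, the median being -0.94, against 0.16 from 2 h to 4 h when none had passed. HTB1 was at 9.21, 9.02, 9.20 and 9.37 at 4 h and 8.31, 7.98, 7.92 and 8.19 at 12 h, with no overlap. It fell by 1.1 ± 0.12 (adjusted p = 3.39e-08, limma). HTB4 fell by 0.98 ± 0.11, HTB11 by 0.95 ± 0.10, HTB2 by 0.78 ± 0.20, AT2G37470 by 1.56 ± 0.14 and AT2G28720 by 0.92 ± 0.23. The H2B genes are close in sequence, and how far their probe sets share signal was not tested. The linker histone genes AT1G06760 (0.04 ± 0.09) and AT2G30620 (0.20 ± 0.08) did not pass, though 1 member of the list rose under quantile normalization, with array weights and with the actin ratio as a covariate. Of 6 measured genes of DNA replication 3 fell, POLA3 of the DNA polymerase alpha and primase complex (-0.88 ± 0.11), PRL, a subunit of the replicative helicase (-0.75 ± 0.11), and ICU2, the catalytic subunit of polymerase alpha (-0.41 ± 0.14). ICU2 did not pass without 4 h replicate 4 or 12 h replicates 1 or 3 (adjusted p of up to 0.0607, limma). The list median was -0.24 in both intervals. Of 8 measured expansin and xyloglucan-modifying genes 3 fell, EXPB1, EXPA15 (-0.65 ± 0.15) and EXPB3 (-0.57 ± 0.14), with a median of -0.23. Over all probe sets 17.5% fell.

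**Figure D4:**
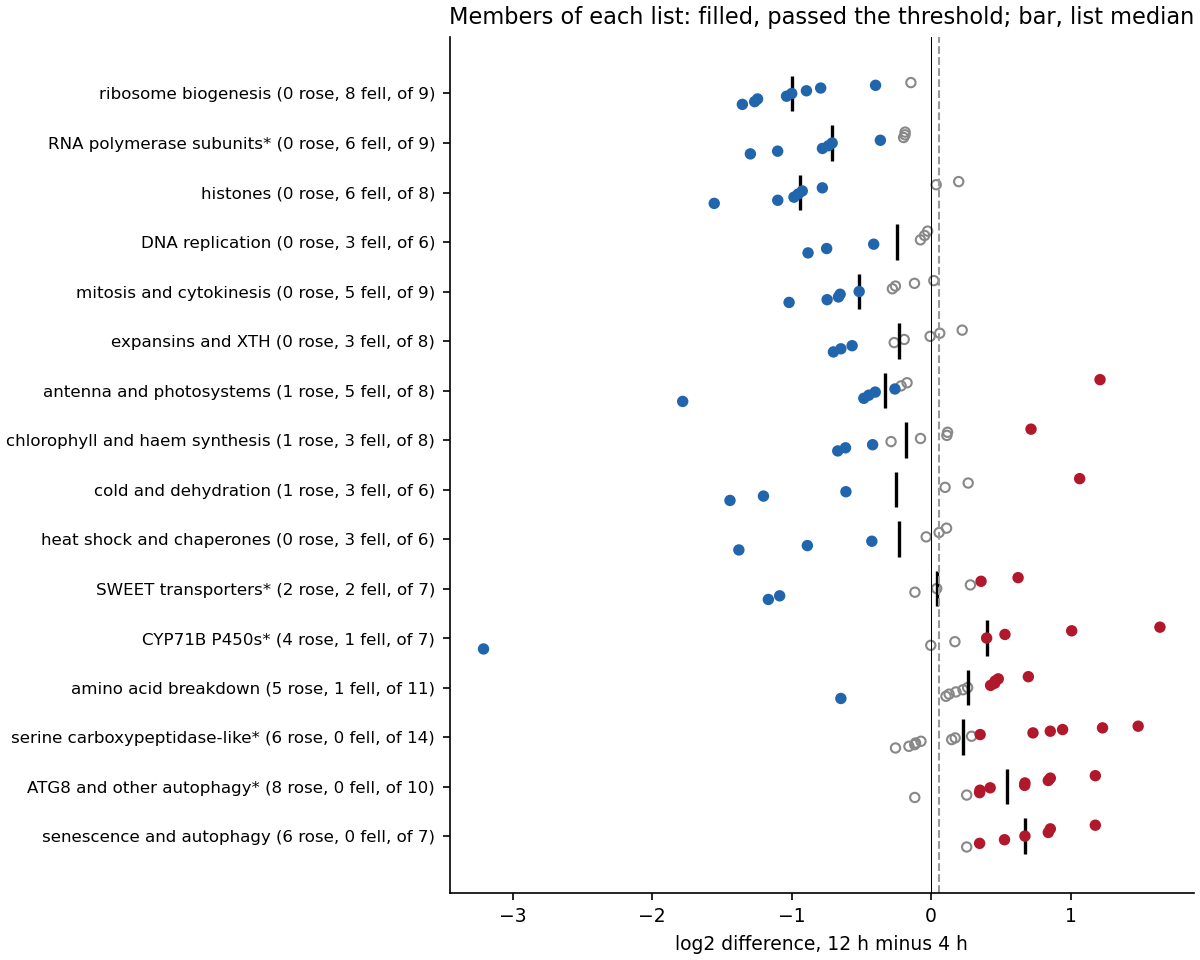
Log2 difference from 4 h to 12 h (x axis) of each measured member of 16 gene lists (rows), 4 arrays against 4, filled where it passed the threshold (blue lower, red higher) and open where it did not, with the list median as a bar and the median of all 13648 probe sets (0.06) as a dashed line. Lists with an asterisk were assembled from gene symbols after values had been seen. No filled point lies above 0 in the 6 uppermost lists.

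Photosynthesis genes did not move as a block. Of 8 measured antenna and photosystem genes 5 fell and 1 rose, with a median of -0.33. LHCB4.2 (AT3G08940), which codes for the minor antenna protein CP29 of photosystem II, stood at 11.12, 11.00, 10.87 and 11.17 at 4 h and at 9.62, 9.14, 9.10 and 9.16 at 12 h. Its paralog LHCB4.3 stood at 7.99, 8.21, 7.78 and 8.16 and then at 8.83, 9.54, 9.27 and 9.36. In both genes the groups were apart, in opposite directions. LHCB4.2 fell by 1.78 ± 0.15, 3.44-fold (adjusted p = 3.60e-10, limma), and LHCB4.3 rose by 1.21 ± 0.14, 2.32-fold (adjusted p = 1.22e-07, limma). LHCB4.1 was at -0.22 ± 0.12 and did not pass (adjusted p = 0.17, limma), although its values did not overlap either and 2 of the 3 paralogs fell under quantile normalization and with the arrays at 2 h, 4 h and 12 h only. The photosystem genes PSAN (-0.45 ± 0.11), PSB27 (-0.40 ± 0.09) and PSAE-1 (-0.48 ± 0.16) fell less, and PSAE-1 did not pass without 12 h replicate 4 (adjusted p = 0.0632, limma). PSBY (-0.26 ± 0.10) lost its call in 8 of the 12 fits that left out 1 array (adjusted p of up to 0.103, limma), with the replicate number as a block (0.0568), without the filter (0.0871) and with no variance trend (0.0556). In the last 3 of these fits 4 members of the list fell.

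Of 4 measured Calvin cycle genes 2 rose, PRK, phosphoribulokinase (0.40 ± 0.14), and AT1G56190 (0.38 ± 0.11), while RCA (-0.04 ± 0.15) and SBPASE (0.18 ± 0.11) did not pass. PRK did not pass without 4 h replicates 3 or 4 or 12 h replicate 2, without the filter or with the actin ratio (adjusted p of up to 0.175, limma), and 3 of the 4 rose under quantile normalization. HPR, the hydroxypyruvate reductase of photorespiration, rose by 0.61 ± 0.13, alone among 4 measured genes of that list, of which 3 rose under quantile normalization. Over all probe sets 21.7% rose. All 3 measured nuclear genes for subunits of the chloroplast NDH complex, which returns electrons to the plastoquinone pool, rose. NdhL went from 7.84, 7.85, 7.77 and 7.85 to 8.60, 8.82, 8.51 and 8.68, a rise of 0.83 ± 0.13 with no overlap (adjusted p = 1.48e-05, limma). NdhN rose by 0.72 ± 0.12 and NdhS by 0.52 ± 0.15. Of 42 plastid-encoded photosynthesis genes and 19 plastid-encoded polymerase and ribosome genes none passed in either direction, with medians of -0.01 and 0.00. Under quantile normalization 1 and 2 of these rose, and the medians were 0.10 and 0.06. In the second list 1 gene also rose with array weights and with the arrays at 2 h, 4 h and 12 h only.

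Other families held members that moved in opposite directions after 4 h. CYP71B26 (AT3G26290), a cytochrome P450 gene, was at 7.81, 8.01, 7.70 and 7.86 at 2 h, 8.0, 8.05, 7.77 and 8.16 at 4 h, and 4.66, 4.90, 4.70 and 4.89 at 12 h. Its 2 h and 4 h values overlapped and its 12 h values were far below both. It fell by 3.21 ± 0.13, 9.26-fold (adjusted p = 3.05e-16, limma), after 0.15 ± 0.13. With the larger pseudocount CYP71B26 fell 6.06-fold. CYP71B22 of the same family went from 6.93, 6.29, 7.11 and 6.15 to 7.88, 8.27, 8.55 and 8.35. All 12 h arrays were higher, and it rose by 1.64 ± 0.24. CYP71B24 rose by 1.01 ± 0.16 and CYP71B6 by 0.53 ± 0.09, and of 7 measured members 4 rose and 1 fell. One of these rises, that of CYP71B28 (0.40 ± 0.13), did not pass without 4 h replicate 3 or 12 h replicate 1 or with the actin ratio (adjusted p of up to 0.0667, limma).

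The methionine sulfoxide reductases of type B repair oxidised methionine in proteins, and 4 of their genes were measured. MSRB6 was at 7.96, 8.35, 7.89 and 7.94 at 4 h and at 6.65, 6.31, 5.75 and 5.71 at 12 h, and MSRB5 at 5.54, 5.88, 3.99 and 4.61 and then at 6.82, 6.99, 6.82 and 6.50. The groups of neither gene overlapped, and the 4 h values of MSRB5 were spread over nearly 2 log2 units. MSRB6 fell by 1.93 ± 0.18 and MSRB5 rose by 1.78 ± 0.33 (adjusted p = 9.69e-05, limma). MSRB3 rose by 0.46 ± 0.14.

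Among 7 measured SWEET sugar transporter genes, SWEET16 and SWEET17, whose proteins sit in the vacuole membrane, fell by 1.17 ± 0.16 and 1.09 ± 0.17. SWEET17 was at 8.22, 8.60, 8.40 and 8.45 at 4 h and 7.49, 7.21, 7.71 and 6.91 at 12 h. SWEET11, a sucrose exporter of the plasma membrane, rose by 0.62 ± 0.17, with 4 h values of 6.30, 6.26, 6.24 and 6.01 and 12 h values of 6.35, 7.35, 6.88 and 6.73. The SWEET17 groups were well apart, while the lowest 12 h array of SWEET11 was just above the highest at 4 h. SWEET1 rose by 0.36 ± 0.10. Of 17 measured UGT glycosyltransferase genes 4 rose, among them UGT71B1 (0.78 ± 0.13), and 4 fell, among them UGT74D1 (-0.84 ± 0.13), which is close to the shares of all probe sets, 21.7% and 17.5%.

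**Figure D5:**
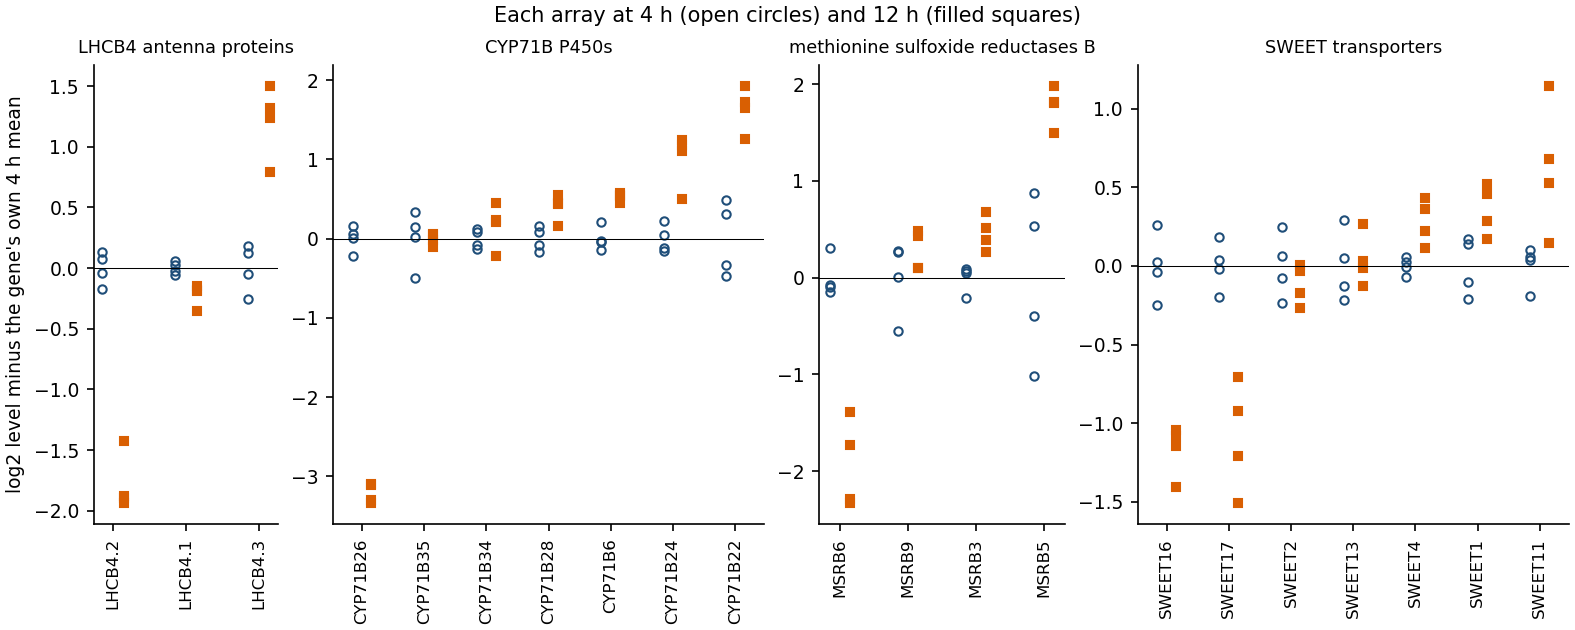
Level of each measured LHCB4, CYP71B, MSRB and SWEET gene on the arrays at 4 h (open circles) and 12 h (filled squares), as the log2 difference from that gene's own 4 h mean (y axis, its range set for each family), 4 arrays per time. LHCB4.2, CYP71B26, MSRB6, SWEET16 and SWEET17 lie below their 4 h values at 12 h, and LHCB4.3, CYP71B22, MSRB5 and SWEET11 above theirs.

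Other lists also held members that fell, and not all of the large falls are printed here. AT3G21670, the only named and measured gene of the nitrate list, was at 7.91, 7.83, 7.93 and 8.23 at 4 h and at 5.43, 5.52, 4.62 and 4.93 at 12 h. Its groups were more than 2 log2 units apart, and it fell by 2.85 ± 0.15 (adjusted p = 3.32e-14, limma). THI2.2, a thionin gene of defence, fell by 2.17 ± 0.30, and alone of 3 measured jasmonate genes it passed. PDF1.2 (0.82 ± 0.65) and THI2.1 (-0.56 ± 0.42) did not. AT1G13650 fell by 3.41 ± 0.21, ending near the floor set by the pseudocount, at 3.48, 3.06, 2.83 and 3.43. With the larger pseudocount THI2.2 fell by 1.53 and AT1G13650 fell by 2.11. Of 4 measured glucosinolate genes 2 fell, BCAT4, an aminotransferase of side-chain elongation (-1.46 ± 0.26), and GSTU20 (-1.1 ± 0.20). DFR, the dihydroflavonol reductase of anthocyanin synthesis, fell by 1.02 ± 0.28, with 1 high array at 4 h (7.92, against 6.10, 5.91 and 6.51) and an overlap between the times. No other of the 4 measured genes of the list for flavonoids and phenylpropanoids passed. HCT, given above among the genes that fell and then rose, is not in that list. GH3.3, which codes for an enzyme that conjugates auxin, fell by 1.15 ± 0.27, alone among 3 measured auxin response genes. The share to set beside the counts of this paragraph is the 17.5% of all probe sets that fell. Of 6 measured heat shock and chaperone genes 3 fell, AT3G09440 (-1.38 ± 0.11), AT5G48570 (-0.89 ± 0.23) and Fes1A (-0.43 ± 0.15), the last of which did not pass without 4 h replicates 1, 3 or 4, without 12 h replicates 1 or 2 or with the actin ratio (adjusted p of up to 0.151, limma). At 24 h AT3G09440 stood at 11.17 ± 0.19 (SD, n = 4), above its mean at 4 h.

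RNA quality was read from the log2 ratio of 3 prime to 5 prime control probe sets. For actin, the 4 h arrays averaged 2.65 ± 0.11 (SD, n = 4) and the 12 h arrays 2.06 ± 0.36 (two-sided exact permutation p = 0.0571, 0.171 adjusted over 3 tests). The GAPDH ratio was 0.41 ± 0.23 and 0.55 ± 0.21 (exact permutation p = 0.429), and the ubiquitin ratio 1.77 ± 0.17 and 1.63 ± 0.16 (exact permutation p = 0.314). With 4 arrays against 4 the smallest p the test allows is 0.0286. With the actin ratio as a covariate 4604 probe sets passed, and 81 reversed, 120 continued and 4403 started. The part of RNA quality in the differences was not tested further.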

How the data were processed

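RNA of developing leaves was hybridised to Affymetrix ATH1 arrays. The deposited intensity values, 1 per probe set and array, were made with MAS5 per the submitters' processing notes, and the trimmed mean of every array is close to 100. Settings of that step are not given in the sources used here. Groups came from the time in each label.

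From these values, log2(intensity + 4.35) was taken, the pseudocount being 10% of the overall median intensity. Those probe sets with a mean under the 40th percentile were left out, which kept 13648 of 22746. limma 3.58.1 in R 4.3.3 was fitted to all 26 arrays in 7 groups with a variance trend, and p-values were adjusted by Benjamini-Hochberg over all measured probe sets at a threshold of 0.05. A class joins the calls of 12 h against 4 h and of 4 h against 2 h. Control ratios were compared by an exact permutation test in SciPy 1.17.1. On simulated data for 12 h against 4 h, 54% of probe sets changed by 0.5 log2 were recovered and 86% of those changed by 1, with 0.0297% of unchanged ones called. In that simulation 13448 of 13648 probe sets were unchanged, while 39.2% passed in the data. The adjusted threshold was therefore stricter there, and these rates do not carry over to the calls given here.

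The members, the comparison and the gene lists were chosen with earlier results of these data known. Genes were named, among probe sets with 1 gene, as the 15 largest rises and 15 largest falls whose groups did not overlap and whose higher mean was above 6, the 8 per direction with the largest smaller difference in the reversed and continued classes, the 8 per direction with the largest difference in the started class among those under 0.2 before, up to 5 called members of each list, and the clock list members. Not all of these are printed. List members that did not pass, and genes of families read from symbols, were added after values were seen. Of the measured probe sets 7445 name 1 gene, 259 several and 5944 none in the annotation used here, so list counts cover few of each list's genes. Names follow the platform annotation and the RefSeq table. Coordinates and sequences are not given. The alternatives tried were another pseudocount, no filter or a stricter one, quantile normalization, a replicate block, array weights, no variance trend, the arrays at 2 h, 4 h and 12 h only, the actin ratio as a covariate, a minimum fold, and leaving out each array.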

Additional observations from a re-analysis of the deposited data

Results flagged for a closer look

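Dixon's criterion was applied to 248 groups of 4 arrays, from named genes at 4 h and at 12 h. Not every gene printed above was included. The highest or lowest array of each group was compared with the spread of the others. It stood apart in 15, and chance alone gives about 1 in 20 groups. At 12 h, replicate 1 stood apart in 4 genes, at 9.10 for AT1G78020 (others 8.68 to 8.72), 10.66 for AT1G25275 (10.88 to 10.89), 9.62 for LHCB4.2 (9.10 to 9.16) and 8.67 for HTB4 (8.32 to 8.37). Replicate 3 at 12 h was at 7.13 for AT1G10640 (7.33 to 7.35). At 4 h, replicate 1 was at 7.99 for SCPL49 (8.37 to 8.40), 7.84 for PRL (8.08 to 8.11) and 7.0 for ATG8E (6.18 to 6.32). Replicate 2 at 4 h was at 9.70 for AT3G28220 (8.25 to 8.42), 8.35 for MSRB6 (7.89 to 7.96) and 5.91 for KINESIN-12B (6.27 to 6.32). Replicate 3 was at 7.48 for AT3G15630 (7.08 to 7.12), and replicate 4 at 5.36 for AT4G37560 (5.02 to 5.03), 7.46 for AT4G32340 (6.83 to 6.93) and 7.51 for APG8H (7.68 to 7.72). What set these arrays apart was not tested.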

How the results depend on the processing

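The count of 5351 probe sets past the threshold stayed within 1.5 times under the alternatives that kept its call rule, from 4246 of fewer probe sets tested with the filter at the 60th percentile to 5921 with array weights. Leaving out 1 array at a time gave 4619 to 5284 (limma). A minimum of 2-fold left 243 higher and 400 lower. None of 238 called differences of named genes changed sign, while 73 that had not passed did so under some alternative, and the median of the plastid photosynthesis genes moved from -0.01 to 0.10 under quantile normalization and that of the SWEET genes from 0.04 to -0.12 with the stricter filter. The reversed class of 81 held 152 with array weights, 2 at 2-fold or more in each called comparison, and 52 to 81 without 1 array, with 53 without 2 h replicate 3 and 52 without 4 h replicate 1 or 4. The continued class of 126 held 212 with array weights, 11 at 2-fold or more and 85 to 125 without 1 array. The class of 5144 that started held 595 at 2-fold or more and 4431 to 5105 without 1 array. The causes were not tested. Of the calls 55.3% were rises, and 51.7% under quantile normalization. With the replicate number as a block, 5542 passed, 97 reversed, 152 continued and 5293 started, and of the called differences of named genes the block ended that of PSBY alone. Deviations of 4 h and 12 h arrays with the same number correlated at 0.384, 0.263, 0.0961 and 0.251, and those with different numbers at -0.318 to 0.0936. Among the 12 h arrays, each 4 h array correlated best with that of its own number, for replicate 3 at 0.0961 against 0.0936. Between 2 h and 4 h, arrays with the same number correlated at 0.282, 0.0161, 0.242 and 0.248, and those with different numbers at -0.36 to 0.18. There, 4 h replicate 2 correlated better with 2 h replicate 3 (0.18) than with its own number (0.0161). The main fit did not use the numbers, so any effect they share stayed in its spread, and what they stand for is not stated. Values near the pseudocount limit folds of dim genes, and 4 arrays per time limit small differences.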
